A study of Mus musculus with 5 samples.

Results

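Neutrophils of the mouse embryo lung were described here in single-cell RNA libraries from 5 embryos at E18.5. The 2 control embryos were Zswim8+/- (Het1 and Het2) and the 3 others were Zswim8-/- (KO1, KO2 and KO3). The controls thus carry 1 mutant allele, and no wild-type lung was part of the comparison. Each library came from the whole dissociated lungs of 1 embryo after red blood cell lysis, and was made with the 10x Genomics 3′ v3.1 kit, which counts unique molecular identifiers (UMIs, 1 per captured RNA molecule) near the 3′ end of transcripts. A cell barcode was called a neutrophil by a rule on detected genes. It needed at least 500 genes, at most 15% mitochondrial UMIs and at least 1 UMI of 3 or more of 6 genes (Asprv1, Il1r2, Csf3r, Stfa2, Stfa2l1 and Csta3). It could have at most 1 of the macrophage genes C1qa, C1qb, C1qc and Ms4a7, no UMI of Epcam, Cdh5 or Pdgfra, and not both of the cell cycle genes Mki67 and Top2a. Of 19491 barcodes that passed the gene and mitochondrial limits, 1202 met the rule: 312 in Het1, 335 in Het2, 139 in KO1, 214 in KO2 and 202 in KO3. The members were chosen by measured values of these genes, so the genes of the rule are described below and not tested.

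Neutrophils are short-lived phagocytes that arise in the marrow, or before birth mostly in the fetal liver, and reach the lung through the blood. They build their granules in a fixed order: primary granules (Mpo, Elane) at the promyelocyte stage, secondary granules (Ngp, Camp, Ltf) at the myelocyte and metamyelocyte stages, and tertiary granules (Mmp9) later, so that transcripts of granule genes mark how far a cell has matured. Zswim8 is the substrate adaptor of a Cullin-RING ubiquitin ligase that marks Argonaute for destruction when its microRNA pairs with certain target RNAs, a process called target-directed microRNA degradation. The comparison of Het with KO asks how the loss of this adaptor shows in the RNA of these cells.

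The neutrophil sums held 658653 (KO1) to 1913326 (Het2) UMIs, and the median UMIs per member were 4255 and 4346 in Het and 4094, 4302 and 4391 in KO, against 9996 to 12974 over all kept barcodes of a library. No barcode sequence of a member was shared between libraries. Zswim8 itself gave 0.0865 and 0.0896 UMIs per member in Het and 0.0576, 0.107 and 0.104 in KO. These 3′ end counts did not separate the genotypes and, where the deletion lies outside the counted end, check nothing. From Xist and Y-linked genes, KO1 and KO2 were female, and KO3 and both Het embryos were male, so all female libraries were KO. KO1 stood apart from its group: over genes, its counts differed from those of KO2 and KO3 by a chi-square per degree of freedom of 5.43 and 5.32, against 2.38 between KO2 and KO3 and 2.09 between Het1 and Het2. The labels do not say whether embryos shared a litter or a dam.

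The genes that lead a neutrophil outside the rule were high in the members. S100a8, a subunit of the antimicrobial protein calprotectin, took 60841, 63088, 75926, 61265 and 64892 CPM (CPM being UMIs of a gene scaled to the same total in each library) of Het1, Het2, KO1, KO2 and KO3, against 701 to 1007 CPM in monocyte barcodes of the same libraries. Mmp9, a gelatinase of tertiary granules, lay at 781 to 830 CPM in the members and at 0 to 0.651 CPM in monocytes. Retnlg, a resistin-like secreted protein of mature granulocytes, lay at 7424 to 12485 CPM in the members and at 1.88 to 4.88 CPM in monocytes. Of 9 primary granule genes, Ctsg and Elane had no UMI in any member and Mpo had 2 UMIs, both in Het1, but the list summed to 235 to 440 CPM per library, mostly from Ctsc, a protease that lysosomes of many cells hold, at 164 to 346 CPM. The eosinophil genes Epx and Prg2 were at 0, and the 5 genes of that list summed to 9.98 to 21.3 CPM, against 1.40 to 2.42 CPM over all kept barcodes. The 6 T, NK and innate lymphoid genes summed to 35.8 to 99.8 CPM against 7.07 to 26.1 CPM over all kept barcodes, most of it Cd3d in every library, while Cd3e was at 0. B cell genes summed to 4.55 to 27.4 CPM with Ms4a1 at 0, and basophil and mast cell genes to 0.523 to 18.6 CPM with Prss34 at 0, both lists highest in KO2. The neutrophil genes outside the rule thus bear out the label for the class as a whole.

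The edge of the rule was mixed. The 119 members with exactly 3 of the 6 markers carried S100a8 and S100a9 as at least 5% of their UMIs in 18 cases (15.1%), and 103 of them (86.6%) had 2 or more of 5 monocyte markers (Ccr2, Ly6c2, F13a1, Ms4a4c and Csf1r). Of the 1083 members with 4 to 6 markers, 953 (88.0%) passed the same S100 level and 153 (14.1%) had 2 or more monocyte markers. Just outside the rule, the 511 barcodes with exactly 2 markers passed the S100 level in 16 cases (3.13%), and 489 of them (95.7%) had 2 or more monocyte markers. At the threshold, the summed S100a8 level per library was 12994 to 22482 CPM in members with 3 markers and 1872 to 4977 CPM in barcodes with 2. Members with 3 markers reached the rule mostly through Csf3r (103 of 119), Stfa2l1 (92) and Il1r2 (90), and held Asprv1 in 7. Of the 256 members with 2 or more monocyte markers, 235 held Stfa2l1, 234 Csf3r and 226 Il1r2. Asprv1, a retroviral-like protease, was seen in 982 of the 1083 members with 4 to 6 markers.

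**Figure D1:**
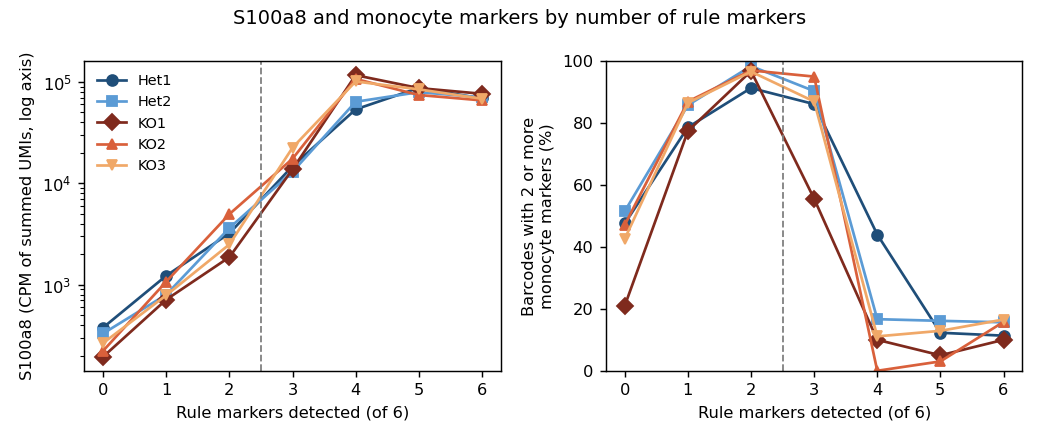
Level of S100a8 (left, CPM of summed UMIs, log axis) and percent of barcodes with 2 or more of 5 monocyte markers (right) against the number of rule markers detected, 1 line per library, for barcodes that met the other parts of the rule. The dashed line is the rule's threshold; from 2 to 4 markers S100a8 climbs in every library while the monocyte-marker share drops from at least 91.3% to at most 44%.

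In all, 256 of the 1202 members (21.3%) had 2 or more monocyte markers: 71 of Het1, 76 of Het2, 17 of KO1, 44 of KO2 and 48 of KO3. They were large, and held 35.4, 35.4, 17.9, 33.1 and 33.6% of the neutrophil UMIs of these libraries. KO1 therefore had a lower monocyte-marker part than the other 4 libraries. Genotype differences of genes that rest on these barcodes are given below without them as well. The summed level of 7 monocyte marker genes was 1597 and 1356 CPM in Het and 492, 1200 and 1249 CPM in KO, and without these barcodes 361 and 354 against 229, 343 and 323 CPM. Of 137 such barcodes (53.5%), S100a8 and S100a9 still made up at least 5% of UMIs, so more than one kind of barcode is in this part. A doublet caller scored 7, 13, 1, 8 and 5 members high in the 5 libraries.

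Neutrophils made up 6.47% (Het1), 7.97% (Het2), 4.44% (KO1), 6.44% (KO2) and 5.03% (KO3) of kept barcodes. The groups did not overlap, but Het1 and KO2 were almost level: their exact 95% binomial intervals were 5.79 to 7.20% and 5.63 to 7.33%. The mean share was 7.22% in the 2 Het libraries (SD 1.06) and 5.30% in the 3 KO libraries (SD 1.03), a difference of -1.92 percentage points with a two-sided exact permutation p of 0.2. With 2 against 3 libraries, the smallest p this test can give is 0.1. With at least 4 rule markers the share was 5.73 and 7.23% in Het and 4.15, 5.84 and 4.46% in KO, where the groups overlapped (exact permutation p = 0.3). They also overlapped with at least 2 rule markers, at least 200 genes or all deposited barcodes, but not with doublets left out. The share without monocyte-marker members was not tested. Taken over barcodes with Ptprc (CD45, the surface marker of all blood leukocytes), the share was 12.6 and 14.2% in Het and 12.8, 11.99 and 9.82% in KO, where the groups overlapped (exact permutation p = 0.3). A share of barcodes depends on dissociation, lysis and capture of the other cells, and the intervals cover counting error only.

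**Figure D2:**
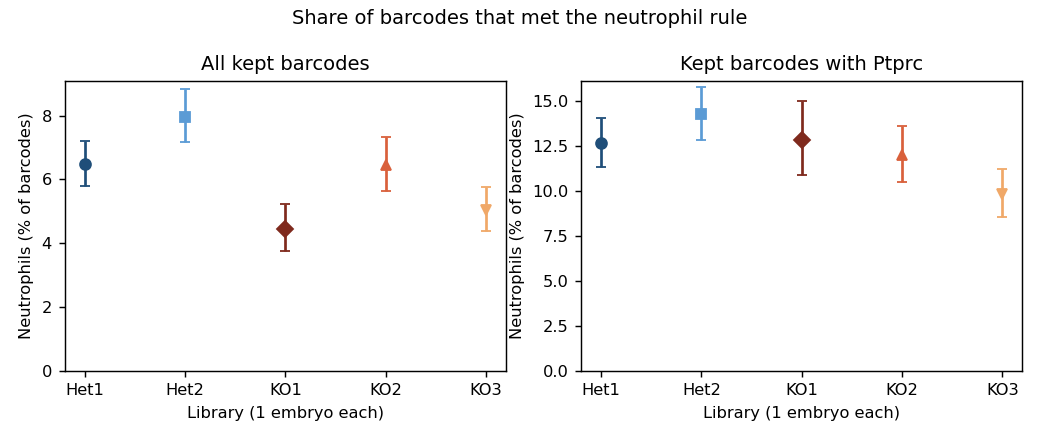
Neutrophils as a percent of all kept barcodes (left) and of kept barcodes with Ptprc (right), 1 point per library, with exact 95% binomial intervals. The 3 KO libraries lie between 4.44 and 6.44% on the left and overlap the Het libraries on the right.

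The rule left out cycling barcodes, so their number is a description with no test. Barcodes that met every part of the rule but held both Mki67 and Top2a numbered 6, 7, 2, 3 and 5 in the 5 libraries, or 1.89 and 2.05% of granulocytic barcodes in Het and 1.42, 1.38 and 2.42% in KO. The size of the members' RNA content did not separate the groups, with a mean of the library medians of 4300.5 UMIs (SD 64.3) in Het and 4262 UMIs (SD 152) in KO (exact permutation p = 0.9).

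A minority of members carried transcripts of the secondary granule genes Ngp, Camp and Ltf, in similar shares in both genotypes. Ngp, neutrophilic granule protein, was detected in 26.3 and 25.4% of Het members and in 28.1, 27.1 and 24.3% of KO members. Camp, which encodes the cathelicidin antimicrobial peptide, was detected in 23.1 and 22.1% against 20.1, 23.8 and 17.8%. Ltf, the iron-binding lactoferrin, was detected in 18.6 and 14.9% against 16.5, 16.8 and 16.3%. The 3 granule genes thus marked about the same part of each library. Ly6g, the surface protein recognised by the usual neutrophil antibody, was detected in 23.7 and 27.8% against 22.3, 25.2 and 22.8%. At least 2 of the 4 genes were detected in 24.4 and 22.7% of Het members and in 24.5, 25.2 and 21.3% of KO members, a difference of 0.138 percentage points (exact permutation p = 0.9). None of the 5 shares separated the groups, with p adjusted over the 5 shares of 0.9 for each. Thinned to 1000 UMIs per barcode, which left out 4 members, the share with at least 2 genes was 17.6 and 14.4% against 15.3, 15.5 and 16.3%. Barcodes with Pdgfra, a fibroblast receptor, held Ngp in 0.775 to 3.07% of cases at a median of 10549 to 12976 UMIs. The part of free RNA in the members' shares was not tested.

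The transcripts were concentrated in few members. The tenth of members with the most Ngp UMIs held 88.2% (Het1) to 94.8% (KO3) of all Ngp UMIs of their library, and Ngp reached up to 5.83% of all UMIs of a member. The genes were found together: of 200 members with Ltf, 188 (94.0%) also had Ngp, and of the members without Ngp 1.35% had Ltf. Of 261 members with Camp, 228 (87.4%) had Ngp. Ly6g was spread more widely, since 206 of its 298 members (69.1%) had Ngp.

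**Figure D3:**
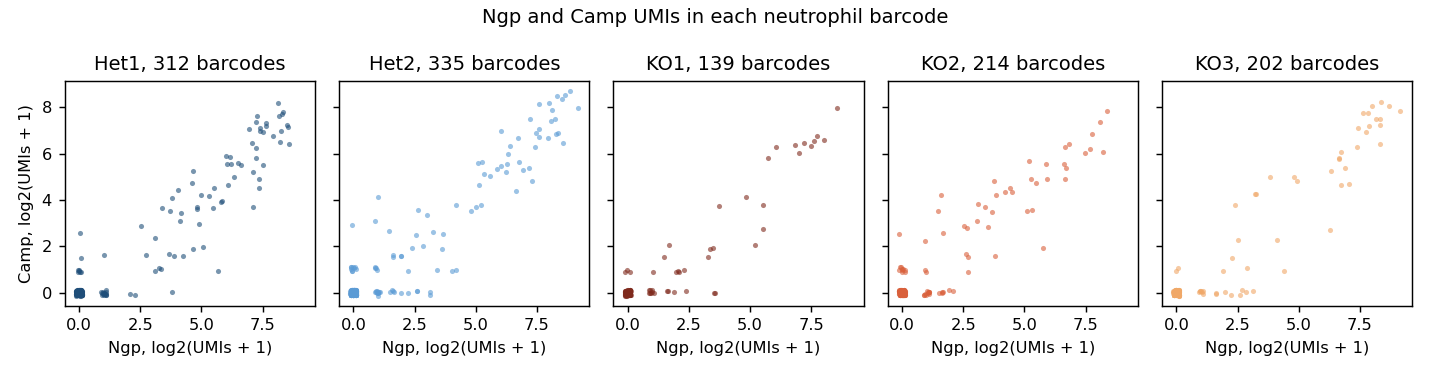
Camp against Ngp in each neutrophil barcode, both as log2(UMIs + 1), 1 panel per library, with points shifted at random by up to 0.12 so that they can be seen. In every library most barcodes sit at 0 for both genes. Of 313 barcodes with Ngp and 261 with Camp, 228 held both, and those with 1 of the genes lie at 0 for the other. Ngp reaches 591 UMIs in a KO3 barcode.

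Ngp, Camp and Ltf lie on mouse chromosome 9, and the stretches before their RefSeq start sites are shown because these 3 are the secondary granule genes described above (build GRCm38.p6, RefSeq promoter windows, cut where the annotated gene begins). Capitals mark matches to TTGCNNAA or its reverse complement TTNNGCAA, the letters bound by C/EBP factors such as Cebpe, which drives the secondary granule programme.
Ngp, chr9:110419558-110419746, plus strand: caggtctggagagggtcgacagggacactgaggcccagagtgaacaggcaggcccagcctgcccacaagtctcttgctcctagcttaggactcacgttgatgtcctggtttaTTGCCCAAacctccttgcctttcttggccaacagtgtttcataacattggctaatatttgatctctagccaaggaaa
Camp, chr9:109849618-109849706, minus strand: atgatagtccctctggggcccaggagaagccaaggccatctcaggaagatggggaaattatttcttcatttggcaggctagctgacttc
Ltf, chr9:111019042-111019270, plus strand: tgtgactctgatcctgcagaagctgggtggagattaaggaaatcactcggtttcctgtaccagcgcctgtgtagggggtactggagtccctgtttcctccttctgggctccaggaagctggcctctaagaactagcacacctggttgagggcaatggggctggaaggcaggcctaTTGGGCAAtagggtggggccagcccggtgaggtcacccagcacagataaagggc
In the 250 bases before the start site, Ngp had 2 matches (138 and 11 bases before it), Ltf had 1 (75 bases before it) and Camp had none. Of these bases, 61 for Ngp, 161 for Camp and 21 for Ltf lie in the annotated gene and are not printed. The Ngp match at 11 bases is among them. Searched on both strands, 9.56% of 32851 promoter windows of this length held a match. Counted by gene, 10.8% of 27025 genes had one, as did 6 of 13 secondary granule, 3 of 6 tertiary granule and 3 of 9 stefin A genes. A match is a description of the letters and not a binding site.

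Members with at least 2 of the 4 maturity genes differed in many other transcripts from members with none, in every library. This is a description, since the 4 genes chose both sets, and the first had deeper barcodes (median of 5629 to 7664 UMIs against 3455 to 3771 per library). Cd177, a surface glycoprotein of neutrophils, averaged 680 ± 89.9 CPM (SD, n = 5 libraries) in the first and 18.996 ± 4.07 CPM in the second. Itgb2l, an integrin-beta-2-like protein, averaged 229 against 6.30 CPM, and Lcn2, the siderophore-binding lipocalin 2, 7980 against 851 CPM. These were joined by Olfm4 (4722 against 1066 CPM), a granule glycoprotein of a neutrophil subset, and the granulocyte factor Cebpe (200.1 against 40.1 CPM). Members with none of the 4 genes were higher in Ccrl2, a chemerin receptor (636 against 72.2 CPM), in Ccl4, a chemokine (280.0 against 32.5 CPM), and in Cdkn1a, the cell cycle inhibitor p21 (442 against 61.5 CPM). They were also higher in the monocyte genes Ccr2 (224 against 11.9 CPM) and F13a1 (225 against 24.1 CPM), although similar shares of both parts had 2 or more monocyte markers (12.96 to 26.3% against 11.5 to 24.5%). With all barcodes of 2 or more monocyte markers left out of the members, Ccr2 lay at 0 to 8.18 CPM. The 2 sets were not compared without these barcodes, so the part of monocyte RNA in the differences here and in the lists below was not tested.

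By lists, 10 of 11 other secondary granule genes were higher with at least 2 maturity genes in all 5 libraries, and none was lower in all 5 (median log2 ratio of 1.76, with 5 CPM added to both sides). Over all 2419 genes at 50 CPM or more, 220 were higher and 1550 lower in all 5, with a median of -0.62. Of 18 genes of cytokines and inflammatory signalling, 17 were higher without maturity genes (median -1.76), as were 14 of 14 immediate early and stress genes (median -1.54). The 22 late neutrophil genes were mixed, with 16 higher without maturity genes and 5 higher with them. Their median was -0.88, against -0.62 over all genes. Among stefin A genes not in the rule, a family of small cysteine protease inhibitors, 6 of 7 were higher with maturity genes, led by Stfa3 at 11093 against 1587 CPM.

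Between genotypes, 12 of 6548 genes tested in the neutrophil sums passed an adjusted p of 0.05 (0.183%; edgeR quasi-likelihood test with Benjamini-Hochberg adjustment): 2 higher in KO (0.0305%) and 10 lower (0.153%). The split was 4 higher and 9 lower with library size alone as the scaling, and 7 higher and 17 lower by DESeq2. For 22.8% of the genes tested, the Het and KO values did not overlap. All but Hba-a1 are described next in 3 groups by where their UMIs lay, a grouping made after the values were seen. Hba-a1, which the rule for named genes leaves out, is a haemoglobin chain (log2 fold change -0.91, adjusted p = 0.0464). Below, a level is CPM scaled by TMM unless stated otherwise, and a log2 fold change is KO over Het with its standard error. Without the barcodes that had 2 or more monocyte markers, 3 of 4901 genes passed (0.0612%): Scgb1a1, Meg3 and Btg2. When sex was added to the model, none passed by edgeR, and 343 had an unadjusted p under 0.05; DESeq2, which called 24 genes in the original design, was not run with sex. KO1 and KO2 are the only females, so that fit leans on KO3 for the genotype.

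The first group held 6 genes, all lower in KO. Ifi203, an interferon-inducible gene of the PYHIN family of DNA sensors (chr1:173920407-173942672), lay at 55.3 and 62.5 in Het and 13.3, 13.02 and 11.9 in KO (log2 fold change -2.21, SE 0.21, adjusted p = 0.00177). Each KO library was thus far below both Het libraries. Its neighbours Mndal (chr1:173849126-173942491) and Ifi211 (chr1:173896345-173913046) did the same, at 66.2 and 55.5 against 14.95, 16.5 and 16.1, and at 88.4 and 93.2 against 28.2, 33.0 and 32.3. Ifi209 of the same family (chr1:173630917-173647928) lay at 60.1 and 47.4 against 24.9, 13.02 and 17.8. Mndal overlaps Ifi203 and Ifi211 on the same strand, and the family is made of close copies, so reads may have been split or shared among them. The last members of this group were Ly6c2 (509 and 455 against 228, 267 and 302) and Ms4a4c (45.1 and 45.3 against 4.98, 13.9 and 16.1), which are themselves among the monocyte markers.

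These PYHIN transcripts lay almost wholly in the monocyte-marker members. Of the 245 Ifi203 UMIs in all neutrophils, 241 (98.4%) were in those 256 barcodes, as were 252 of 260 Mndal UMIs, 407 of 413 Ifi211 UMIs and 230 of 239 Ifi209 UMIs. In the other 946 members, Ifi203 had 2 UMIs in each Het library and 0 in each KO library. Within the monocyte-marker members, Ifi203 averaged 1.27 and 1.5 UMIs per barcode in Het and 0.471, 0.341 and 0.292 in KO. These barcodes made up 22.8 and 22.7% of members in Het and 12.2, 20.6 and 23.8% in KO, and whether their make-up differed between genotypes was not tested. In monocyte barcodes outside the rule, Ifi203 lay at 126 and 107 against 117, 92.4 and 93.1, with a log2 fold change of -0.22 (SE 0.11, adjusted p = 0.324), and Mndal at 131 and 123 against 97.4, 89.6 and 86.9, with a log2 fold change of -0.48 (SE 0.078, adjusted p = 0.00691). For Ly6c2, 60.1% of UMIs were in the monocyte-marker members, and without them it lay at 258 and 266 against 170, 212 and 219.5 (log2 fold change -0.38, adjusted p = 0.529). All 197 Ms4a4c UMIs were in the monocyte-marker members, so none was left without them.

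**Figure D4:**
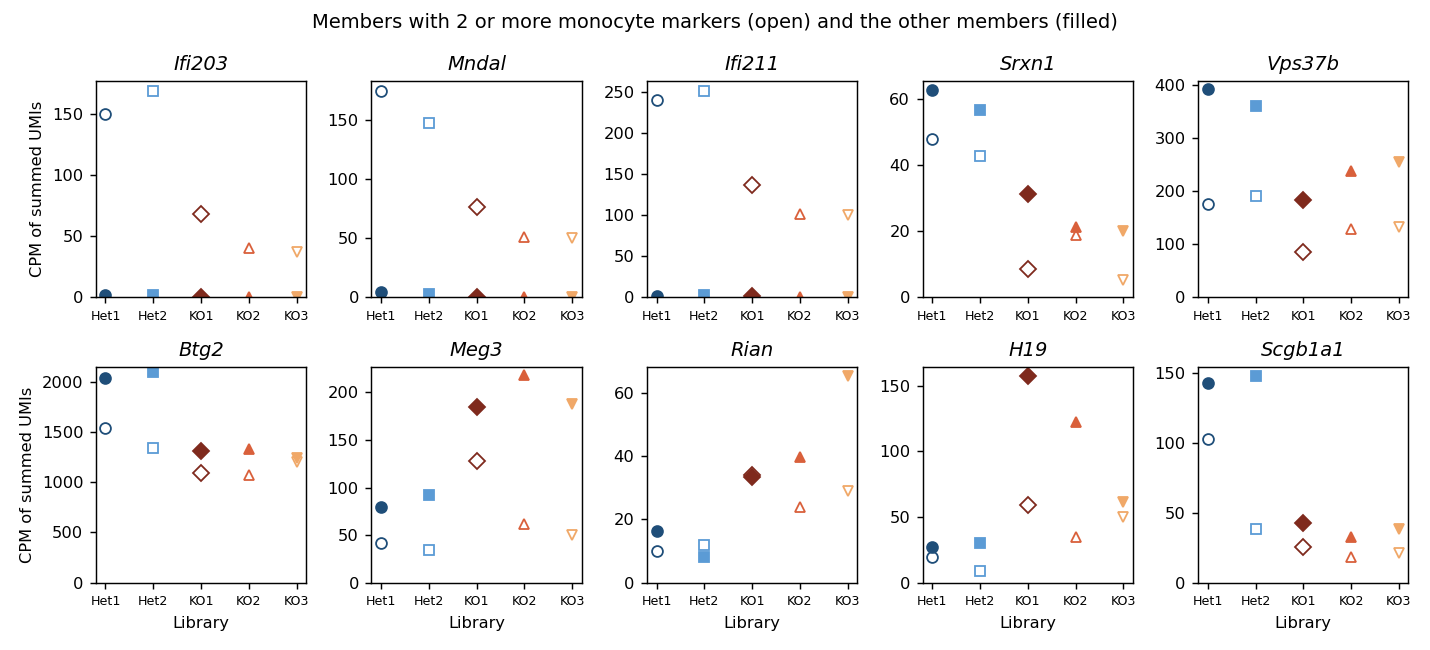
CPM of summed UMIs of 10 named genes by library, for members with 2 or more monocyte markers (open symbols) and for the other members (filled symbols), each panel from 0. The filled symbols of Ifi203, Mndal and Ifi211 lie at 0 to 4.54 CPM, while Srxn1, Vps37b and Btg2 are lower in the KO libraries in both parts.

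The second group held 3 genes whose UMIs were also found in red-cell barcodes of every library, where they differed between genotypes in the same direction. These barcodes, with under 500 genes and over 50% haemoglobin UMIs, were taken as a measure of free RNA and had a median of 2328 to 2622 UMIs. Scgb1a1, the club cell secretoglobin of airway epithelium (chr19:9083636-9087958), gave 0.702 and 0.624 UMIs per member in Het and 0.187, 0.150 and 0.183 in KO (log2 fold change -1.89, SE 0.19, adjusted p = 0.00177). In red-cell barcodes it gave 0.470 and 0.274 against 0.229, 0.102 and 0.140, so both kinds of barcode were lower in KO. Over all kept barcodes of the lung, Scgb1a1 lay at 1715 and 1520 CPM against 401, 471 and 337 CPM, not scaled by TMM, while the values of Meg3 (1445 and 1383 against 1921, 1235 and 1351 CPM) and of Rian (213 and 199 against 278, 197 and 214 CPM) overlapped there. Meg3, a maternally expressed long noncoding RNA (chr12:109541001-109571726), gave 0.359 and 0.409 UMIs per member against 0.827, 0.879 and 0.792 (log2 fold change 1.19, SE 0.16, adjusted p = 0.0169), and 0.268 and 0.219 against 0.662, 0.373 and 0.399 in red-cell barcodes. Rian, which lies downstream of Meg3 in the same imprinted cluster (chr12:109603940-109661716), gave 0.0769 and 0.0537 against 0.158, 0.182 and 0.297 UMIs per member (log2 fold change 1.77, SE 0.28, adjusted p = 0.0381), and 0.0635 and 0.0505 against 0.145, 0.0959 and 0.108 in red-cell barcodes. Of the genes that did not pass, H19, another imprinted noncoding RNA, had the same pattern: 0.135 and 0.128 against 0.662, 0.495 and 0.322 per member, and 0.0835 and 0.0679 against 0.534, 0.147 and 0.213 in red-cell barcodes. How much of these values came from the members' own RNA was not tested.

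The third group held Srxn1 and Vps37b, whose UMIs were spread over members with and without monocyte markers and were rare in red-cell barcodes. Srxn1 encodes sulfiredoxin, which restores oxidised peroxiredoxins (chr2:152105516-152111376). It lay at 58.9 and 53.3 in Het and 29.9, 19.97 and 14.4 in KO (log2 fold change -1.48, SE 0.24, adjusted p = 0.0413). Vps37b, a subunit of the ESCRT-I complex that sorts membrane proteins for degradation (chr5:124004641-124032270), lay at 324 and 309 against 181, 198 and 205 (log2 fold change -0.69, SE 0.11, adjusted p = 0.0381). For both genes every KO library was below both Het libraries. Red-cell barcodes held 0.00253 to 0.00483 Srxn1 UMIs against 0.0842 to 0.314 per neutrophil, and 0.00403 to 0.0130 Vps37b UMIs against 0.784 to 1.72. Without monocyte-marker members the log2 fold changes were -1.42 for Srxn1 and -0.82 for Vps37b, each with an adjusted p of 0.0525, just past the threshold. Both calls were lost when Het1, Het2, KO2 or KO3 was left out, with adjusted p of 0.120 to 0.181 for Srxn1 and 0.0633 to 0.449 for Vps37b, and held without KO1.

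Genes that did not pass are given as values, by smallest p among genes whose Het and KO values did not overlap. Of all genes tested, 22.8% had no overlap. That every KO library lay on the same side of Het was thus a condition of being named here. Btg2, an antiproliferative immediate early gene, lay at 1911 and 1888 in Het and 1387, 1228 and 1182 in KO (log2 fold change -0.59, SE 0.12, adjusted p = 0.113), and passed without monocyte-marker members (log2 fold change -0.77, SE 0.11, adjusted p = 0.0332). Ell2, a transcription elongation factor, lay at 237 and 262 against 149.5, 178 and 161 (adjusted p = 0.112). Both genes were lower in KO. Tnfaip2, a gene induced by tumour necrosis factor, lay at 526 and 551 against 864, 841 and 709 (log2 fold change 0.58, adjusted p = 0.137). Prok2, the chemokine-like prokineticin 2 made by neutrophils, lay at 61.3 and 60.3 against 191, 132 and 104 (log2 fold change 1.18, adjusted p = 0.0740), and had no UMI in monocyte barcodes. Hspa4l, a heat shock protein of the Hsp110 family, lay at 68.0 and 56.0 against 115, 110.3 and 92.6 (adjusted p = 0.137). These 3 genes were higher in KO. Bst2 (tetherin), which is interferon-inducible, and Ly6e, a surface protein of the Ly6 family, were lower in KO, with adjusted p of 0.0568 and 0.0740. They held 83.8 and 88.2% of their UMIs in the monocyte-marker members. Without those members Bst2 lay at 25.7 and 16.1 against 13.2, 1.32 and 5.26 (adjusted p = 0.451), and Ly6e overlapped between groups at 69.3 and 57.5 against 75.7, 34.3 and 35.5 (adjusted p = 0.734).

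The maturity genes were lower on average in KO, and none passed the test. Ngp lay at 4254 and 3909 in Het and 3138, 2278 and 4249 in KO (log2 fold change -0.34, SE 0.21, adjusted p = 0.806), and Camp at 2282 and 2656 against 1728, 1249 and 2525 (log2 fold change -0.43, SE 0.23, adjusted p = 0.767). KO3 lay at the level of the Het libraries for both genes. Ltf lay at 1783 and 1613 against 1151, 1041 and 1508 (log2 fold change -0.46, SE 0.15, adjusted p = 0.511), and Ly6g at 159 and 164 against 128, 99.0 and 108 (log2 fold change -0.55, SE 0.14, adjusted p = 0.270). For Ltf and Ly6g the groups did not overlap, and with KO1 left out Ly6g passed (log2 fold change -0.64, adjusted p = 0.0143). The 4 shares of members with these genes did not separate the genotypes, as given above. With sex in the model the log2 fold changes of Ngp and Camp were 0.058 and 0.032. Over all 17 alternatives, that of Ltf ran from -0.63 to -0.17 and that of Ly6g from -0.67 to -0.47. Among these alternatives Ly6g passed in 3, Ltf in 1, Camp in 1 and Ngp in 0. Without monocyte-marker members, Ngp lay at 5325 and 4879.6 against 2826, 3106 and 5153.

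Within the other granule lists no gene passed: 0 of 16 secondary granule genes (median log2 fold change -0.081 against 0.0019 over all genes), 0 of 8 tertiary granule genes (0.16) and 0 of 3 primary granule genes (-0.33). With KO1 left out, the secondary granule count was also 0. Lyz2, lysozyme, lay at 6523 and 5947 against 4475, 5055 and 5533 (adjusted p = 0.705), and Mmp9 at 835 and 832 against 869, 816 and 749.5 (adjusted p = 0.971). None of 6 S100 genes passed (0.053), and S100a9 lay at 77084 and 82177 against 111960, 80700.2 and 78901, KO1 being the highest. The rule's own genes are given with no test: Stfa2 lay at 5625 and 6570.2 against 8917, 5459.5 and 5109.7, Asprv1 at 867 and 1010 against 1314, 882 and 945, and Csf3r at 628 and 657 against 804, 689 and 736. None of 8 other stefin A genes passed (-0.041), with Stfa1 at 27921 and 29571 against 32713, 25006 and 26599.

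Genes of mature neutrophil function passed in no list either, namely 0 of 22 late neutrophil genes (median 0.11), 0 of 15 chemokine and adhesion receptors (0.085), 0 of 20 cytokine and inflammatory genes (-0.042), 0 of 6 NADPH oxidase genes (0.013) and 0 of 13 Fc and inhibitory receptors (0.067). Cxcr2, the receptor that draws neutrophils to CXC chemokines, lay at 446 and 492 against 606, 504 and 518 (log2 fold change 0.21, adjusted p = 0.775). Il1b, the precursor of interleukin 1 beta, lay at 4302 and 4415 against 5306, 4710.2 and 4039.9 (adjusted p = 0.935), and Ptgs2, cyclooxygenase 2, at 798 and 774 against 593, 503 and 653 (adjusted p = 0.420). With KO1 left out, after its values were seen to stand apart, 88 of 6950 genes passed (1.27%), 74 of them lower (1.06%). In that fit 2 of 22 late neutrophil genes passed, both lower, and 1 of 15 chemokine and adhesion receptors, higher. Of 14 immediate early and stress genes, none passed and 10 were lower (median -0.27), and with KO1 left out 5 of 15 passed, all lower. The AP-1 subunits Junb (2347 and 2440.4 against 1613, 1790.3 and 1761, adjusted p = 0.276) and Fos (1325 and 1411 against 821, 1048 and 981, adjusted p = 0.247) were lower in every KO library. Of 11 oxidative stress genes 1 passed, Srxn1, and 10 were lower (median -0.23). Of 17 genes of hypoxia and glycolysis none passed (median 0.13).

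Markers of other cells moved as follows. Erythroid genes summed to 38887 and 34043 CPM in Het and 13464, 21599.8 and 22422 CPM in KO, not scaled, and 1 of 5 passed, Hba-a1. Hbb-bs, the adult beta-globin chain, gave 109 and 98.1 UMIs per member in Het and 26.7, 57.1 and 58.0 in KO. Epithelial genes summed to 1145 and 927 against 1770, 743 and 1261 CPM, and 1 of 10 passed, Scgb1a1. Mesenchymal genes summed to 133 and 401 against 172, 700.5 and 232 CPM, with Het2 and KO2 highest, and endothelial genes to 76.3 and 58.0 against 50.1, 35.3 and 32.8 CPM. Of 7 monocyte markers 2 passed, Ly6c2 and Ms4a4c, both lower, and of 7 macrophage markers none passed. The part of these RNAs in the results above was not tested beyond the values given.

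Interferon-stimulated genes split the KO libraries. Isg15, a ubiquitin-like protein, lay at 152 and 143 in Het and 262, 26.9 and 36.5 in KO1, KO2 and KO3 (log2 fold change -0.66, SE 0.64, adjusted p = 0.893). Rsad2 (viperin) lay at 59.5 and 47.9 against 128, 1.74 and 7.65, and Oasl2, an oligoadenylate synthetase-like protein, at 61.3 and 63.0 against 145, 13.9 and 11.1. KO1 was thus above both Het libraries and KO2 and KO3 far below them. The split was not confined to the members. Not scaled by TMM, the listed genes summed to 2250 and 1973 CPM in Het members and 2557, 1187 and 1045 CPM in KO members. In monocytes they summed to 1416 and 1253 against 1322, 1071 and 1001 CPM, and over all kept barcodes to 1025 and 896 against 938, 597 and 592 CPM. KO2 and KO3 were below both Het libraries in each sum, and KO1 was above both in the members alone. Of 17 genes in the list, 15 were lower in both KO2 and KO3 than in both Het libraries, and 10 were higher in KO1 than in both. The shares of all genes with these orders were not counted, so how unusual the counts are is not known. In the test of all 5 libraries 0 of 15 genes passed, with 14 lower (median -0.66), the SE being widened by the spread within KO.

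With KO1 left out, 88 of 6950 genes passed (1.27%), 74 of them lower in KO (1.06%), and of 16 interferon-stimulated genes 14 passed, all lower. The log2 fold change was then -2.21 for Isg15 (adjusted p = 2.2e-05) and -3.48 for Rsad2 (adjusted p = 0.000239). KO1 was left out after its values were seen to stand apart, so the count describes KO2 and KO3 against Het and not the genotype. With the monocyte-marker members left out as well, 77 of 5107 genes passed (1.51%), 66 of them lower (1.29%), and 10 of 11 of these genes passed, all lower, with Isg15 at -2.25. Of Isg15 UMIs 36.7% and of Rsad2 UMIs 18.48% were in monocyte-marker members, against 98.4% of Ifi203 UMIs. Red-cell barcodes held 0.00579 to 0.0488 Isg15 UMIs against 0.145 to 1.14 per member. For Rsad2 they held 0.164 and 0.0822 in Het and 0.135, 0.0461 and 0.0667 in KO, against 0.317 and 0.266 and against 0.554, 0.00935 and 0.0446 per member, so that the KO2 and KO3 members lay below the red-cell level. KO1 and KO2 were female and KO3 was male, and the part of sex in this split was not tested.

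**Figure D5:**
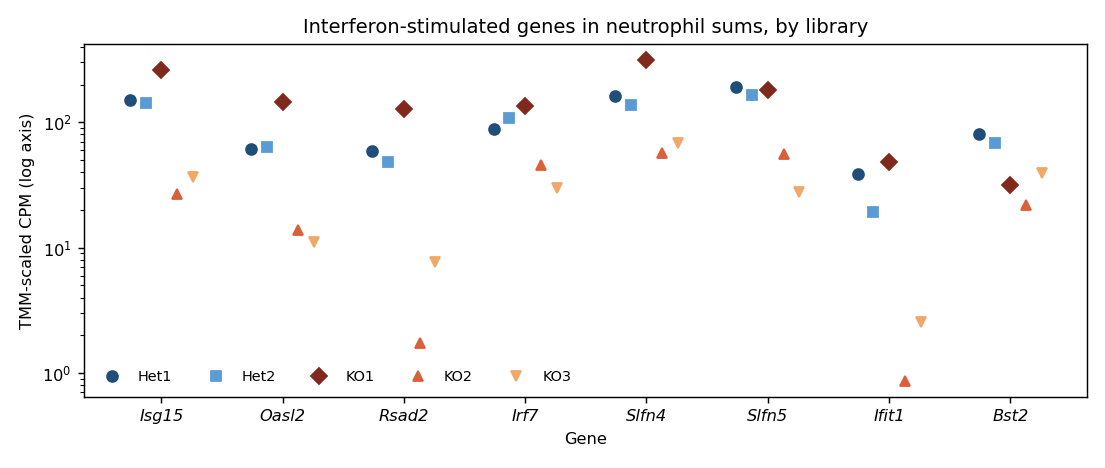
TMM-scaled CPM (log axis) of 8 interferon-stimulated genes in the neutrophil sums of each library. KO2 and KO3 lie below both Het libraries for all 8 genes, while KO1 lies above both for 6 of them, between them for Slfn5 and below both for Bst2.

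Whether the genotype difference was larger in neutrophils than in monocytes of the same libraries was tested by a genotype by cell type term, with the library as a block. Monocytes here were 2609 barcodes with at least 3 of the 5 monocyte markers and at most 1 rule marker. Of 10208 genes, 37 passed (0.362%), and the markers that chose either class are not read. For Vps37b, the levels in the joint fit were 418 and 398 against 228, 254 and 262 in neutrophils, and 43.1 and 39.5 against 54.7, 46.0 and 50.5 in monocytes (term -0.98, SE 0.15, adjusted p = 0.00258). Srxn1 lay at 76.1 and 68.7 against 37.6, 25.6 and 18.51 in neutrophils, and 34.0 and 43.3 against 35.5, 34.4 and 32.4 in monocytes (term -1.32, SE 0.27, adjusted p = 0.0239). Both were lower in every KO library in neutrophils. In monocytes Vps37b was higher in every KO library (log2 fold change 0.26, adjusted p = 0.155), so that its term holds differences of opposite sign, and Srxn1 overlapped between groups. Without monocyte-marker members the terms were -1.16 (adjusted p = 0.000771) and -1.31 (adjusted p = 0.0409). For Meg3 the term was 0.73 (adjusted p = 0.0694) and for Scgb1a1 -0.22 (adjusted p = 0.906), whose fold changes in monocytes were 0.43 and -1.71. For Ifi203 the term was -2.01 (adjusted p = 0.000216), and without monocyte-marker members, with 4 Ifi203 UMIs left, its adjusted p was 0.648.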

How the data were processed

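The deposited values are UMI counts per gene and barcode, for which Cell Ranger 4.0.0 and build mm10 are named in the submitters' processing notes. Genes were joined by Ensembl ID, and coordinates came from GENCODE M21 (GRCm38). Counts of member barcodes were summed per library and tested with edgeR 4.0.16 (R 4.3.3; filterByExpr, TMM, glmQLFit, glmQLFTest, all 5 libraries, no covariate), with Benjamini-Hochberg adjustment over all genes tested at 0.05. Shares were compared with a two-sided exact permutation test over libraries, and their intervals were exact binomial (Clopper-Pearson) at 95%. The edgeR and DESeq2 fits were tried first on simulated sums in which all libraries had the same spread, and the permutation test was not. The members and gene lists were chosen with earlier results of these data known. Named genes were the rule's 6 markers, the 4 maturity genes, up to 10 genes past the threshold in each direction, then, to a total of 20, genes ranked by p that had a group mean of 50 CPM or more and no overlap between groups, and of each list the 4 with the highest mean, or fewer where space required. Rule, sex-linked, haemoglobin and mitochondrial genes were left out of the ranked parts. Other members, and genes singled out for free RNA or the interferon pattern, were chosen after their values were seen. Nothing says that embryos came from separate litters, so p-values measure the spread between these libraries. Alternatives are DESeq2 1.42.0, other scalings, filters and member rules, a replicate block, sex as a covariate and leaving out each library.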

Additional observations from a re-analysis of the deposited data

Results flagged for a closer look

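For 7 named genes the genotype difference in neutrophils and in monocytes of the same libraries differed by the genotype by cell type term of the edgeR fit (log2, neutrophils relative to monocytes). The term was -2.01 for Ifi203, -1.46 for Mndal and -1.09 for Ifi211, whose neutrophil UMIs lay in members with 2 or more monocyte markers. It was -0.98 for Vps37b and -1.32 for Srxn1, which are spread over all members. It was -0.86 for Ly6e and -1.01 for Bst2, which did not pass the genotype test within neutrophils. Without the monocyte-marker members the terms of Ifi203, Mndal, Ifi211, Ly6e and Bst2 did not pass (adjusted p of 0.648, 0.371, 0.865, 0.781 and 0.166), and those of Vps37b and Srxn1 did. In all, 37 of 10208 genes passed this test.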

How the results depend on the processing

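The count of 12 genes between genotypes became 24 with DESeq2, 134 with no filter on low counts, 21 with the replicate number as a block (replicate block), 0 with sex as a covariate, 2 with at least 4 rule markers, 3 without monocyte-marker members, and 77 without these and KO1 (chosen after seeing the data); leaving out 1 library gave 5 to 88, with 8 without Het1, 6 without Het2, 5 without KO2, 16 without KO3 and 88 without KO1. Library size alone (13), a mean of 20 UMIs (9), at least 2 rule markers (14), at least 200 genes (12) and no doublets (9) stayed within 1.5 times; the share of higher calls was 16.7% as reported, 29.2% with DESeq2 and 30.8% with library size alone. The labels give no pairing, and the deviations of same-numbered libraries correlated at -0.018 and 0.056. The 37 genes of the genotype by cell type term became 18 with library size alone and 23 without monocyte-marker members (chosen after seeing the data), and 12 to 61 with 1 library left out (12 without Het1, 17 without Het2, 61 without KO1, 17 without KO2). The neutrophil share difference was -0.69 points over all deposited barcodes, and -2.66 to -1.17 points with 1 library left out. With at least 2 rule markers, the difference in cycling share was 1.85 points and that in median UMIs -271. The Ngp share difference was -1.04 points when thinned, and the Ltf share difference ran from -2.02 to 1.64 points with 1 library left out. Of the named genes, Srxn1 lost its call in 9 of 17 alternatives, Vps37b in 11, Rian in 9, Ly6c2 in 8, Meg3 in 6 and Scgb1a1 in 2; no called gene changed sign. The causes were not tested. Depth limits low genes most in KO1, whose sum held 658653 UMIs.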

Other observations

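Cd3d, a subunit of the T cell receptor complex, was far higher in neutrophils than in monocytes. It lay at 34.0 and 31.9 CPM in the neutrophil sums of Het and 59.2, 98.1 and 68.2 CPM in those of KO, against 0 to 0.434 CPM in monocytes and 1.11 to 2.99 CPM over all kept barcodes of the lung, most of whose UMIs are from other cells. Its level in T cells was not analysed here. Its partner Cd3e had no UMI in any of the 1202 members. Of the 346 Cd3d UMIs, 15.6% were in members with 2 or more monocyte markers, and red-cell barcodes held 0.000252 to 0.00107 per barcode against 0.182 to 0.519 in neutrophils. Between genotypes it was higher in KO but did not pass the edgeR test (log2 fold change 1.18, SE 0.21, adjusted p = 0.0645).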
